A study of Mus musculus with 4 samples.

Results

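The genes examined were those of the deposited table whose symbols consist of Tex (testis expressed), Spata (spermatogenesis associated) or Spag (sperm associated antigen) and a number, with Tex11, Tex12, Tex15, Tex101 and Spata16 left out. The rule found 42 of the 25965 listed genes, 12 named Tex, 19 named Spata and 11 named Spag. They were measured in round spermatids, the haploid germ cells that follow meiosis, sorted by flow cytometry from testis of mice of the ICR background. The comparison was between 2 libraries of genotype Wfdc15a+/-, the heterozygous controls, and 2 libraries labelled Wfdc15a-/-, called knockout below. All 4 libraries thus carry at least 1 altered Wfdc15a allele. The age of the mice, the number of animals behind a library and the nature of the allele are not stated in the labels, so a p-value below speaks only of how these 4 samples vary, and that variation may be technical. Wild-type controls, which the series' design also mentions, were not analysed here.

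These names record where a gene was first found and not what its protein does, so the family is one of shared expression rather than shared sequence. Round spermatids transcribe the parts of the future sperm ahead of time, and many of the transcripts are stored and translated later, while the nucleus condenses and the tail grows. Proteins with these names are found in the central pair of the sperm axoneme (the microtubule core of the tail), in the neck that joins head and tail, in the mitochondrial midpiece, in the nuclear envelope and in the bridges between germ cells. Others, such as the ER-phagy receptor encoded by Tex264 or the endosomal scaffold encoded by Spag9, serve functions of most cell types.

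Levels are given as RPM, in which the reads of a gene are divided by all reads of its library. The totals recovered from the table were 5774112 and 33853604 reads for heterozygous libraries 1 and 2, and 21160061 and 11268909 reads for knockout libraries 1 and 2. Wfdc15a itself was read at 121 and 85.2 RPM in the heterozygous and at 82.6 and 59.5 RPM in the knockout libraries, and the difference did not pass (log2 difference -0.53, SE 0.29, limma adjusted p = 0.647). All 16 round spermatid markers had reads in every library, and their summed level was between 15617 and 17241 RPM. Markers of other cells differed in level between libraries. The 16 macrophage markers summed to 41.7 and 41.0 RPM in the heterozygous libraries, with 7 and 2 of them at 0 reads, and to 428 and 141 RPM in the knockout libraries, with 0 at 0 reads. The 10 late spermatid markers, transition proteins, protamines and tail proteins, summed to 5839 and 9955 RPM in heterozygous libraries 1 and 2 and to 6368 and 6181 RPM in the knockout libraries. Of these 10, 0 passed, but 6 lay below both heterozygous libraries (background over all tested genes 15.0%), 5 were lower at an unadjusted p under 0.05 (background 1.87%), and the median log2 difference, knockout minus heterozygous, was -0.59. These 5 were the transition protein genes Tnp1 and Tnp2 and the protamine genes Prm1, Prm2 and Prm3. Tnp2 had the largest difference of the list at -1.69 (limma adjusted p = 0.222). For Akap4, Odf2 and Gapdhs both knockout libraries lay between the heterozygous ones, with log2 differences of 0.20, 0.071 and -0.047. The 7 Leydig cell markers summed to 6.58 and 3.19 against 37.7 and 16.7 RPM, and the 11 Sertoli cell markers to 29.96 and 45.3 against 66.3 and 61.1 RPM. Of 8 tested Sertoli cell markers 4, namely Trf, Clu, Inha and Wt1, lay above both heterozygous libraries (background 23.5%). Clu was at 10.7 and 25.6 against 37.2 and 29.6 RPM, and Trf at 0.520 and 0.768 against 9.31 and 7.54 RPM. Fshr, Cldn11 and Gata4 were lower in mean in knockout. The 12 spermatogonium markers summed to 1222 and 859 against 920.5 and 1180.2 RPM. Most of that sum was Ddx4, at 1159 and 802 against 825 and 1098 RPM. Of 10 tested spermatogonium markers 5 lay above both heterozygous libraries (background 23.5%), with a median of 0.82. The part of these other cells and stages in the members' values was not tested. In sorted cell pools, fewer cells of a type and less RNA per cell cannot be told apart.

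Most of the genes were strongly read. Of the 42, 40 had reads in at least 1 library, 33 averaged 30 RPM or more, 23 averaged 100 RPM or more, and 6 with reads averaged under 10 RPM. Together they held 1.19% and 1.32% of the listed reads in heterozygous libraries 1 and 2, and 1.22% and 1.32% in knockout libraries 1 and 2. To compare levels between genes, RPM were divided by the exon length of each gene in GENCODE M21. On this scale, RPM per kb, the median member lay above 92.8% of the 24125 genes with a known length, and 24 of the 42 were among the top 10%. The 3 X-linked members had a median percentile of 53.8 beside 94.1 for the 39 autosomal members, but X-linked Tex13a was at 84.7, above several autosomal members. Over the whole table the medians were 41.4 for X-linked and 50.6 for autosomal genes.

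**Figure D1:**
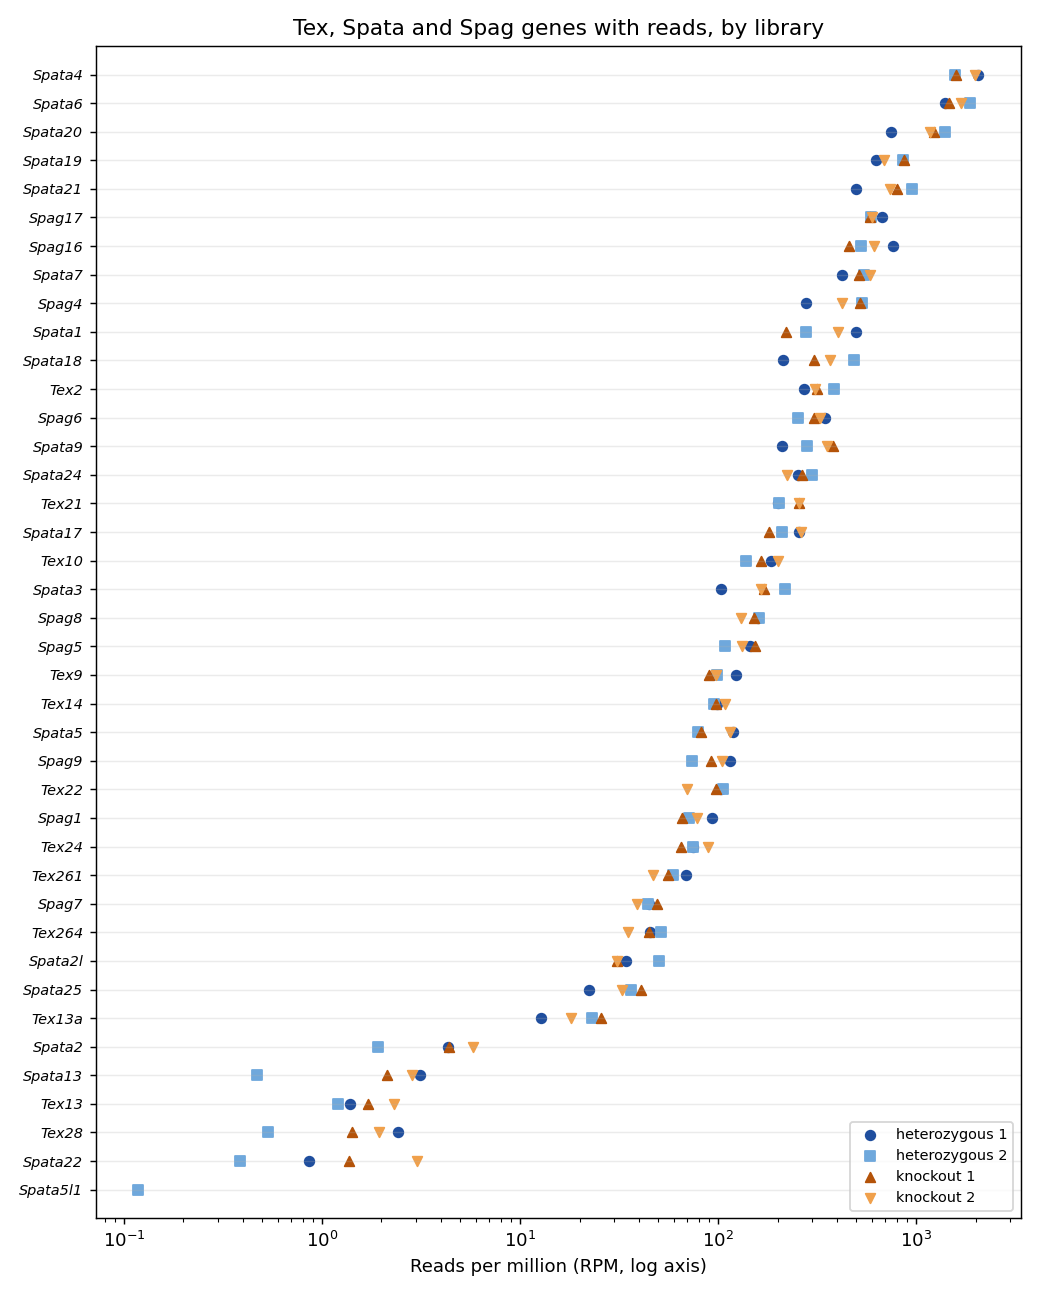
Level of each of the 40 genes with reads in each library, as RPM on a log axis, ordered by mean; each point is 1 library, and a library with 0 reads has no point. 33 genes average 30 RPM or more, and 6 lie below 10 RPM.

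Spata4 had the highest level per length by a wide margin, at 1957 and 1492 RPM per kb in the heterozygous and 1499 and 1869 RPM per kb in the knockout libraries. Next came Spata19, a protein of the mitochondrial sheath, with 430 and 590.3 against 595 and 473 RPM per kb. Spata20, a thioredoxin-domain protein of spermatids, had 261 and 488 against 429 and 409 RPM per kb. The 2 groups overlapped for all 3 genes. Spata6, which is needed to build the connecting piece of the sperm neck, had a mean of 286 RPM per kb and Spata21 one of 286 RPM per kb. Spata24 followed at 259, Spata9 at 184 and Spata18, a mitochondrial quality control protein, at 163 RPM per kb. Tex21, at 94.6 RPM per kb, and Spag4, a SUN-domain protein of the spermatid nuclear envelope, at 91.1 RPM per kb, completed the 10 highest.

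At the other end, Spag11a and Spag11b, defensin-like genes of the epididymis, had 0 reads in all 4 libraries, which allows up to 0.520, 0.0886, 0.142 and 0.266 RPM in the 4 libraries in the order given above (3 reads each, counting error only). Spata5l1, named after an AAA ATPase related to Spata5, had 4 reads in heterozygous library 2 and 0 in the others. Its row matched a GENCODE M21 entry typed as a processed transcript and not as protein coding. Whether the row covers the coding transcript was not examined. These 3 genes were not tested. The recombination gene Spata22, the deubiquitinase adaptor gene Spata2, the exchange factor gene Spata13, Tex28 and Tex13 averaged 1.41 to 4.10 RPM.

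Promoter windows were available from RefSeq (GRCm38.p6, from 250 bases before to 50 after the annotated start) for 34 of the 42 genes. Those of 5 genes are shown because they span the range described here: Spata4 has the highest level, Spag4, Spag6 and Spag16 hold motifs of factors active in spermatids, and Spata9 had the smallest p in the comparison of genotypes. Capitals mark any of the 4 motifs searched on both strands, which were TGACGTCA (the cAMP response element), TGACG (its short form, contained in the first), TATAAA (the TATA box) and GTTGCC (a part of the X-box bound by RFX factors).
Spata4 (chr8:54600531-54600830, plus strand): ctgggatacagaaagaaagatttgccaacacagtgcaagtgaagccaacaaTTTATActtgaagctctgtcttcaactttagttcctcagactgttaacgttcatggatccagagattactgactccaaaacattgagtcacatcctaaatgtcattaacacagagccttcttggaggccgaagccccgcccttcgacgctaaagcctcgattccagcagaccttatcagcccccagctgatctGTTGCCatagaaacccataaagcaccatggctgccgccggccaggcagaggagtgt
Spag4 (chr2:156064963-156065262, plus strand): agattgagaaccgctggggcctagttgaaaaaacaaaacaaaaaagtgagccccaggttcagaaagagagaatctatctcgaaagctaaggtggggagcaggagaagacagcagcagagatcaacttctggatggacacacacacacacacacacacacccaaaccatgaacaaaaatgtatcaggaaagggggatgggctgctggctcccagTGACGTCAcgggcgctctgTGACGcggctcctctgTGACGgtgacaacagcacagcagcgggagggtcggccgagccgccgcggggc
Spag6, annotated Spag6l (chr16:16829314-16829613, minus strand): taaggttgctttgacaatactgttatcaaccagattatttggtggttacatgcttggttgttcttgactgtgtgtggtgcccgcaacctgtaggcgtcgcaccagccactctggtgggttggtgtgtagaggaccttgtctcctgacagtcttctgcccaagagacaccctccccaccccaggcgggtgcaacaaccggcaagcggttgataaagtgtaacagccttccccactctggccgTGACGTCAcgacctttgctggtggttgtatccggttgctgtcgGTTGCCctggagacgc
Spag16 (chr1:69826720-69827019, plus strand): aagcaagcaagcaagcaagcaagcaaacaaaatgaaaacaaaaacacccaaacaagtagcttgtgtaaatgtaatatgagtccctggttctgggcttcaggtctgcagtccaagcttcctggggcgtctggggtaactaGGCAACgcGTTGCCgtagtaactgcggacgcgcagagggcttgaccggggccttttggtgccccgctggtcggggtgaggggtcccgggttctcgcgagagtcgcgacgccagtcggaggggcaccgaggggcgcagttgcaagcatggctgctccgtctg
Spata9 (chr13:75967489-75967788, plus strand): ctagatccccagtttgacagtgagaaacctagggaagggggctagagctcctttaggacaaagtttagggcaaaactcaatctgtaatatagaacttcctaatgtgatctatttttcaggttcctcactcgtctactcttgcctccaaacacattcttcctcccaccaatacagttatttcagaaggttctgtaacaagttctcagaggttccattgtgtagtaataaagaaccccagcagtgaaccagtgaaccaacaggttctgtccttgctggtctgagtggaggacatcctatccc

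In the Spag4 window the full cAMP response element begins 37 bases before the start, with short forms 18 and 2 bases before it. In the Spag6 window it begins 9 bases before the start, and GTTGCC follows 34 bases after the start. Spag16 holds GTTGCC on both strands, beginning 111 and 103 bases before the start, and Spata4 holds it 6 bases before the start, with TATAAA on the opposite strand 199 bases before. The Spata9 window holds none of the 4 motifs. Shares were counted by gene, and where a gene had several windows a match in any of them counted. The full element was found for 3 of the 34 genes (8.8%), Spag4, Spag6 and Spata7, beside 3.4% of the 10494 tested genes with a window. TGACG was found for 32.4% of the members and 32.7% of the tested genes with a window, GTTGCC for 14.7% and 16.0%, and TATAAA for 11.8% and 9.7%. A match describes the letters of the window and not the binding of a factor.

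The windows of the most abundant members were poor in CpG dinucleotides. The ratio of observed to expected CpG was averaged where a gene had several windows. Of the 10 genes highest per length, 9 had a window, and for 7 of these the ratio was under 0.6. It ran from 0.0685 in Spata9 and 0.141 in Spata21 to 0.466 in Spata4, the exceptions being Spag4 at 0.615 and Spata18 at 0.851. Of the other 25 members with a window, 5 (20.0%) were under 0.6. Among tested genes of the table at least as high per length as the lowest of the 10, 51.9% of 507 genes with a window were under 0.6. Among the lower ones 37.0% of 9970 were. The split by level was chosen after these values were seen and was not tested.

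**Figure D2:**
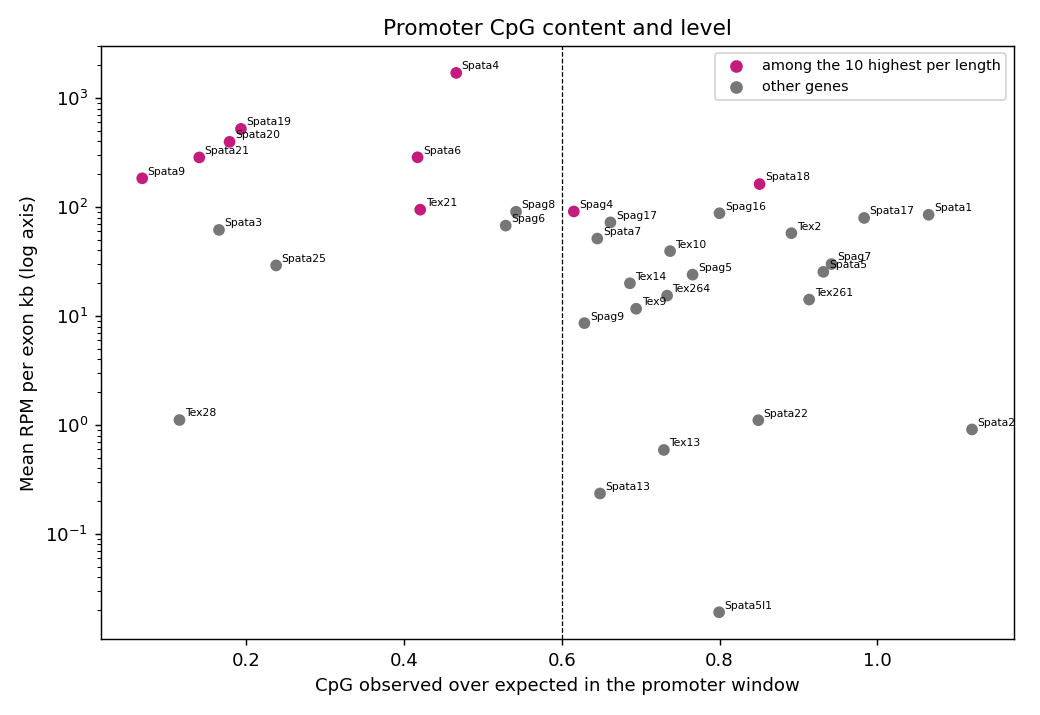
Mean level in RPM per exon kb (log axis) against the ratio of observed to expected CpG in the promoter window, for the 34 genes with a window; the dashed line is at 0.6. Of the 9 coloured genes, which are among the 10 highest per length, 7 lie left of the line.

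The main comparison asked whether these transcripts differ between knockout and heterozygous spermatids. No member passed. Of the 39 genes that had 1 RPM or more in at least 2 libraries, 0 had a limma adjusted p under 0.05 (background over all 15888 tested genes: 0%), and the lowest value, that of Spata9, was 0.578. Without adjustment, 1 of the 39 (2.56%, background 8.08%) had a p under 0.05. This was Spata9, higher in knockout (background 6.21% higher), and 0 were lower (background 1.87%). With voom weights on the recovered reads 0 members passed after adjustment, and 2 were under an unadjusted p of 0.05. The median log2 difference, knockout minus heterozygous, was 0.075 over the 39 members and 0.068 over all tested genes, and it was above 0 for 23 members (59.0%, background 56.1%). Among genes at 30 RPM or more it was 0.0021 for 33 members and -0.031 for 5421 genes.

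The differences were small where the levels were high. Of the 39 members, 33 (84.6%, background 63.5%) differed by less than 0.5 on the log2 scale. Of the 33 members at 30 RPM or more, 32 (97.0%) did so, beside 88.1% of all genes at that level. Of the 34 members at 10 RPM or more, 29 had a 95% confidence interval between -1 and 1, within a 2-fold change either way. The same share over all genes at that level was not computed. At 30 RPM or more the median SE was 0.25 for members and 0.27 for all genes. The largest change of mean RPM among the 34 was 1.51-fold. For members under 10 RPM the intervals were wide, from -0.46 to 4.10 for Spata22, so that a change of several fold lay within them.

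**Figure D3:**
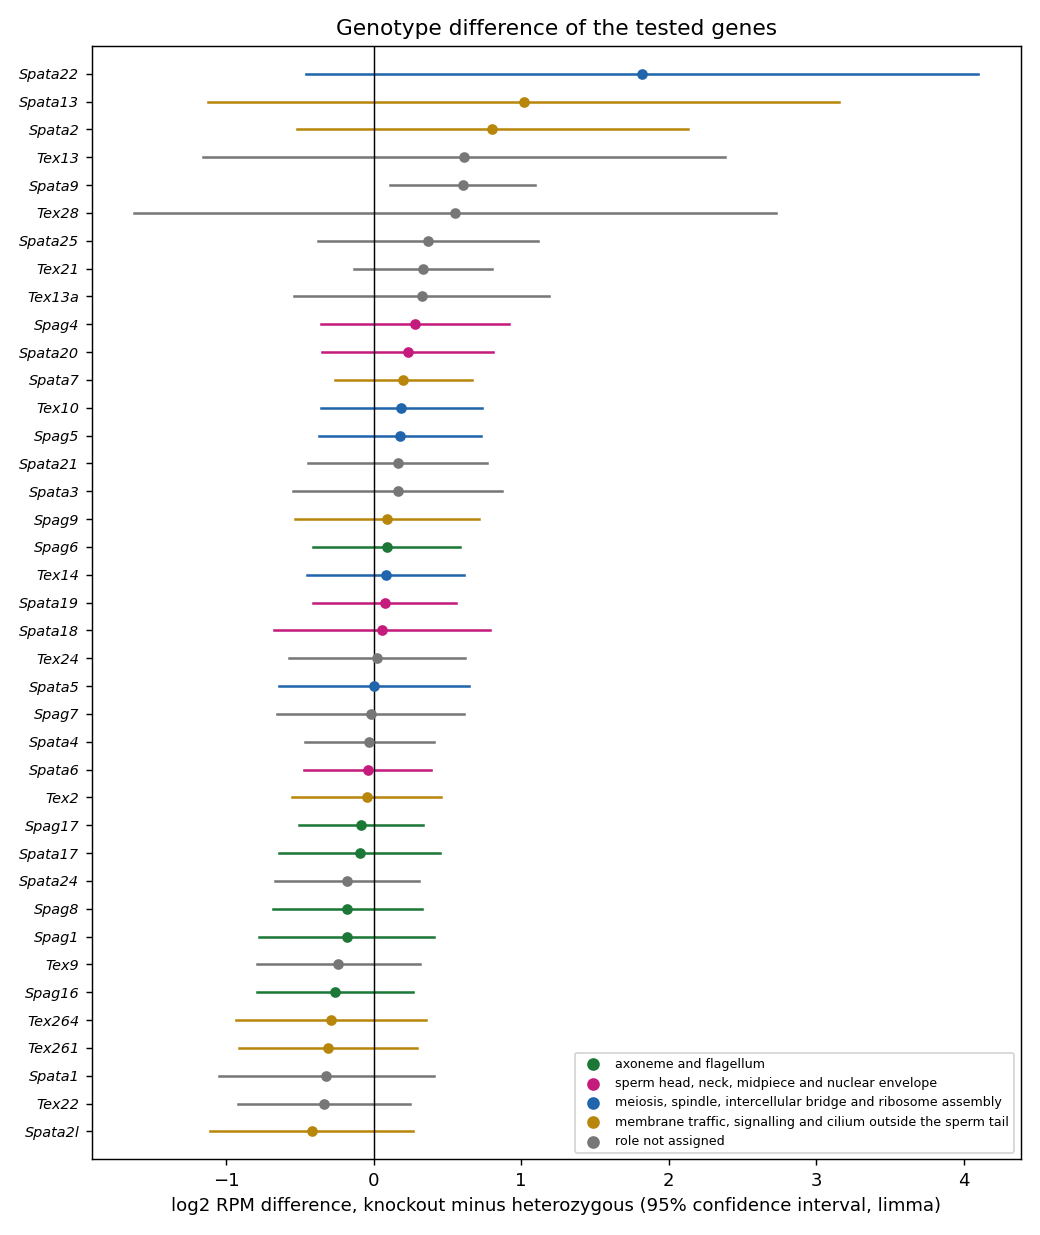
log2 difference (knockout minus heterozygous) of each of the 39 tested genes, points with 95% confidence intervals from limma, coloured by the part of the cell the protein serves. The interval holds 0 for 38 of the 39 genes, Spata9 being the exception, and none passed after adjustment.

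Both knockout libraries lay above both heterozygous libraries for 5 of the 39 members (12.8%, background 23.5%) and below both for 6 (15.4%, background 15.0%). The background genes were lower in level, with a median of 12.7 RPM beside 151 RPM for the tested members. For these 2 orders the background among genes of like level was not computed, here or for the gene lists. Spata9 (chromosome 13, 75967739 to 75998968 in mm10) was at 211 and 280.2 RPM in the heterozygous and 383 and 357 RPM in the knockout libraries, 1.51-fold higher in mean (246 ± 48.7 against 370 ± 17.9 RPM, SD, n = 2 each). The difference did not pass (limma log2 difference 0.60, SE 0.22, adjusted p = 0.578). Both knockout libraries were high, and the gap from the lower of them to heterozygous library 2 was similar in size to the gap between the heterozygous libraries. Spata9 passed only without heterozygous library 2, the deepest (log2 difference 0.81), a fit in which many other genes of the table passed as well.

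Tex21 showed the closest agreement of replicates among the higher genes. The gene (chromosome 12, 76198692 to 76246746 in mm10) was at 201 and 205 RPM in the heterozygous and 257 and 256 RPM in the knockout libraries, 1.26-fold higher (log2 difference 0.34, SE 0.21, adjusted p = 0.703). The groups did not overlap, but limma takes most of the spread of a gene from genes of like level, and the difference did not pass. Spata22, whose protein acts on single-stranded DNA in meiotic recombination, rested on 5, 13, 29 and 34 reads, or 0.866 and 0.384 against 1.37 and 3.02 RPM (adjusted p = 0.666). It overlaps the listed olfactory receptor gene Olfr20. The 12 spermatocyte markers summed to 1263 and 885 against 987 and 1289 RPM, with heterozygous library 2 lowest as for Spata22, and their part in its value was not tested. Spata2, an adaptor of the deubiquitinase CYLD in tumour necrosis factor signalling, was at 4.33 and 1.92 against 4.40 and 5.77 RPM (adjusted p = 0.760). It overlaps the listed gene Rnf114. Macrophage markers, with the summed levels given above, were also higher in both knockout libraries. Their sum was highest in knockout library 1, and Spata2 was highest in knockout library 2. The part of macrophages in the value of Spata2 was not tested. Tex13 on chromosome X, annotated Tex13b in GENCODE M21, was at 1.39 and 1.21 against 1.70 and 2.31 RPM (adjusted p = 0.884).

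Among the 6 genes below both heterozygous libraries, 3 encode proteins of membranes or signalling. Spata2l, the paralogue of Spata2, was at 34.3 and 50.4 against 31.1 and 31.1 RPM (log2 difference -0.42, SE 0.31, adjusted p = 0.760). Tex261, which takes part in export from the endoplasmic reticulum, was at 69.1 and 59.0 against 56.2 and 47.2 RPM (adjusted p = 0.804). Tex264, a receptor that delivers endoplasmic reticulum to autophagosomes, was at 45.4 and 51.7 against 44.9 and 35.0 RPM (adjusted p = 0.834). In each of these the higher knockout library came close to the lower heterozygous one. Tex22 was at 103 and 106 against 98.0 and 70.1 RPM (adjusted p = 0.774), with knockout library 2 alone well below the rest. Tex9 was at 123 and 99.4 against 90.2 and 97.5 RPM (adjusted p = 0.843), and it overlaps the listed gene Mns1. Spag8, a protein inside the tubules of the axoneme, was at 158 and 161 against 152 and 131 RPM (adjusted p = 0.881).

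The genes of the axoneme and flagellum were Spag16, Spag17 and Spag6 of the central apparatus, Spata17, the dynein arm assembly factor gene Spag1, and Spag8. Of these 6, 0 passed in either direction, and their median log2 difference was -0.14. Spag16 was at 769 and 529 RPM in the heterozygous and 459 and 617 RPM in the knockout libraries, so that the groups overlapped. Spag17 was the steadiest of them, at 673 and 593 against 587 and 603 RPM. Spata17 was at 257 and 211 against 182 and 262 RPM, and Spag1 at 92.8 and 71.4 against 65.9 and 78.1 RPM. The Spag6 row lies on chromosome 16 from 16753016 to 16829456, the position of the copy that GENCODE M21 names Spag6l, and was at 346 and 255 against 304 and 328 RPM. The gene that GENCODE M21 names Spag6, on chromosome 2, is listed as BC061194 and was at 465 and 485 against 396 and 401 RPM. The chromosome 2 copy was higher per length in all 4 libraries, at 117 to 143 RPM per kb beside 55.9 to 75.8 RPM per kb. Reads of such similar copies can be misassigned.

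Of 25 tested partners of the central apparatus and radial spokes, 0 passed and the median log2 difference was -0.13. Both knockout libraries lay below both heterozygous libraries for 8 of the 25 (background 15.0%) and above for 0 (background 23.5%). Hydin, a giant protein of the central pair, was at 387 and 361 against 294 and 299 RPM (adjusted p = 0.686). Nme5, of the radial spokes, was at 289 and 277 against 235 and 203 RPM (adjusted p = 0.667), and Dydc1 at 180 and 128 against 100.4 and 113 RPM (adjusted p = 0.628). All 3 of these, named because their p was the smallest of the list, were low in both knockout libraries. The groups overlapped for Spag16, Spag17 and the Spag6 row on chromosome 16, all of the central apparatus. The chromosome 2 copy, listed as BC061194, was below both heterozygous libraries, at 465 and 485 against 396 and 401 RPM (limma adjusted p = 0.771). The difference between the partners and the Spag genes was not tested.

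The genes of the sperm head, neck, midpiece and nuclear envelope were Spag4, Spata6, Spata18, Spata19 and Spata20. Of these 5, 0 passed, their median log2 difference was 0.075, and for 4 of them both knockout libraries lay between the 2 heterozygous libraries (background 19.2%, or 23.4% at 30 RPM or more). Spata6 was at 1397 and 1877 RPM in the heterozygous and 1469 and 1688 RPM in the knockout libraries. Spag4 was at 279 and 536 against 522 and 424 RPM, and Spata20 at 749.9 and 1403 against 1232 and 1177 RPM. Spata18 was at 213 and 485 against 305 and 367 RPM. In all 4 the heterozygous libraries marked the lowest and the highest value. Spata19 was at 626 and 861 against 868 and 690 RPM, with the groups interleaved.

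Leaving out a heterozygous library turned the direction of several of these genes. Where both knockout libraries lay between the heterozygous ones, this follows from that order, and only the sizes are added here. Spata18 had a log2 difference of 0.056 with all libraries, -0.54 without heterozygous library 1 and 0.65 without heterozygous library 2. Spata20 had 0.23, -0.22 and 0.68 in the same order. It passed without heterozygous library 2, a fit in which many other genes of the table passed as well. Of 22 tested partners in head-tail coupling and in the bridge between nucleus and cytoskeleton, 0 passed, with a median of 0.16. Sun3, which forms part of that bridge along the manchette, was at 123 and 149 against 204 and 173 RPM (adjusted p = 0.628). Sun2 averaged 1.65 against 4.92 RPM (adjusted p = 0.626), and Ift88 at 228 and 179 against 147 and 162 RPM (adjusted p = 0.686).

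The gap between the 2 heterozygous libraries was larger than the genotype difference for 29 of the 39 members (74.4%, background 61.9%), and larger than the gap between the knockout libraries for 28 (71.8%, background 61.0%). Heterozygous library 2 was the higher of its group for 19 of the 39 (48.7%, background 44.0%). Both knockout libraries fell between the heterozygous ones for 13 of the 39 (33.3%, background 19.2%), and among genes at 30 RPM or more for 11 of 33 members (33.3%, background 23.4%). The direction of that gap is given by role, with roles that were assigned when earlier results were known, and its relation to role was not tested. All 5 genes of the head, neck and midpiece were higher in heterozygous library 2, with a median gap of 0.90 on the log2 scale. Of the 6 axonemal genes 1 was higher in that library (median gap -0.33), and of the 5 tested genes of meiosis, spindle, bridge and ribosome assembly 0 were (median gap -0.43). The genes of membrane traffic and signalling were mixed, with 4 of 8 higher in heterozygous library 2, as were those with no assigned role, with 9 of 15.

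Stage markers also differed between the heterozygous libraries. The 10 late spermatid markers had a median gap of 0.76, heterozygous library 2 minus 1, and the 12 spermatocyte markers one of -0.59. Markers of either list at 0 reads numbered 0 in every library, and the summed levels are given above. The 2 heterozygous libraries also differed most in depth. The part of stage mixture or depth in the gap was not tested.

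**Figure D4:**
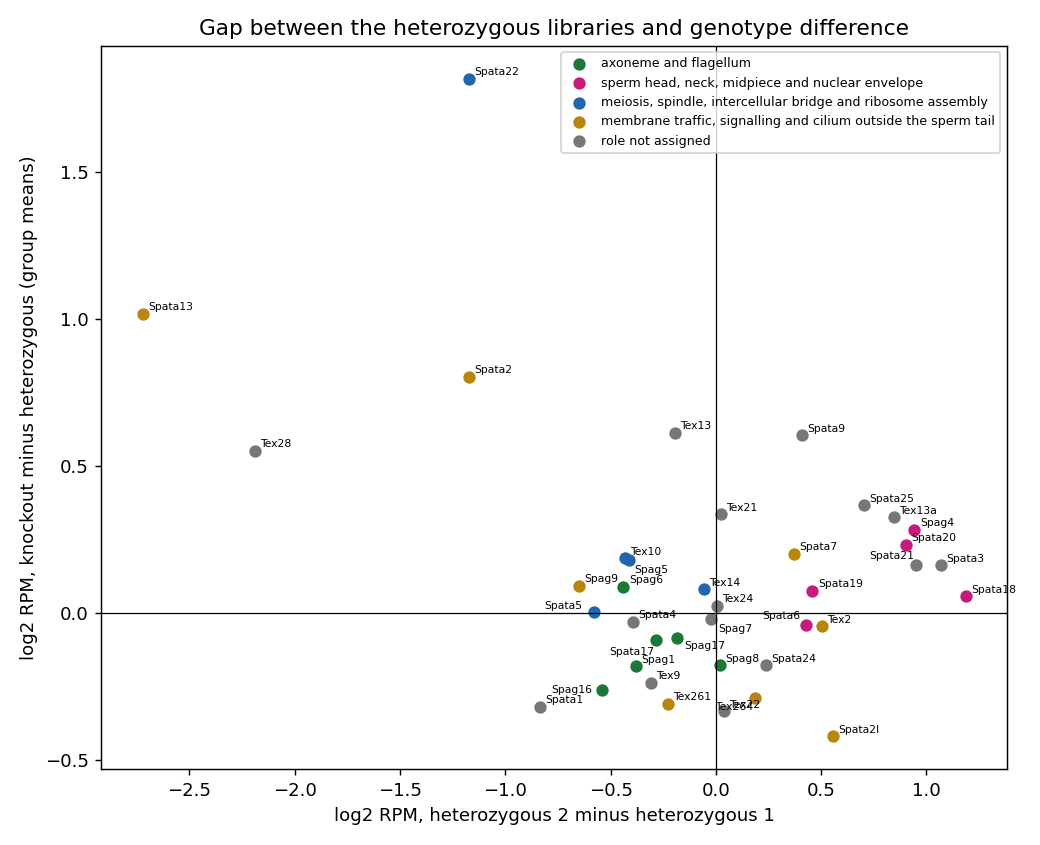
Each tested gene's log2 gap between the heterozygous libraries (2 minus 1, horizontal) and its log2 genotype difference (knockout minus heterozygous, vertical), coloured by role. The 5 genes of head, neck, midpiece and nuclear envelope lie right of 0, and 5 of the 6 axonemal genes lie left of it.

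The genes of meiosis, spindle, intercellular bridge and ribosome assembly numbered 6, of which 4 averaged 98.9 to 173 RPM, Spata22 1.41 RPM and Spata5l1 close to 0. Of the 5 tested, 0 passed. Tex14, which keeps the bridges between germ cells open, was at 99.2 and 95.3 against 97.3 and 109 RPM, within 1.06-fold between the groups. Spag5, the spindle protein astrin, was at 145 and 109 against 153 and 132 RPM. Tex10, of a complex that matures the large ribosomal subunit, was at 186 and 138 against 165 and 202 RPM, and the AAA ATPase gene Spata5 at 119 and 79.5 against 82.0 and 115 RPM. Apart from Spata22, described above, the groups overlapped for all of them. Of 11 tested partners of Tex14 in bridges and cytokinesis, 0 passed and the median was 0.017. Racgap1, of the centralspindlin complex that Tex14 protein meets at the bridge, was at 43.0 and 32.3 against 49.1 and 53.2 RPM (adjusted p = 0.712). Tsg101 was at 64.8 and 65.2 against 37.3 and 59.7 RPM (adjusted p = 0.718), and Rbm44, a bridge protein, at 75.7 and 43.8 against 64.7 and 79.8 RPM (adjusted p = 0.831).

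Of the 8 genes of membrane traffic, signalling and cilia outside the sperm tail, 0 passed, 1 lay above both heterozygous libraries (background 23.5%) and 3 below (background 15.0%). Spata7, a protein of the photoreceptor connecting cilium, was the most strongly read, at 422 and 546 against 517 and 589 RPM. Tex2, a lipid transfer protein of endoplasmic reticulum contacts, was at 272 and 385 against 317 and 311 RPM, and Spag9 at 116 and 73.6 against 92.3 and 105 RPM. Spata13 was at 3.12 and 0.473 against 2.13 and 2.84 RPM. In the last 3 the knockout libraries lay between the heterozygous ones.

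Of 16 tested genes of ER-phagy and the autophagosome, the pathway of Tex264, 0 passed, and the median was -0.13. At an unadjusted p under 0.05, 2 of the 16 were lower (background 1.87%) and 0 higher (background 6.21%). Both knockout libraries lay below both heterozygous libraries for 6 (background 15.0%) and above for 3 (background 23.5%). The 2 were Gabarapl2, at 46.8 and 27.4 against 18.1 and 19.8 RPM (log2 difference -0.92, SE 0.35, adjusted p = 0.585), and Map1lc3a, at 76.9 and 121 against 73.6 and 43.1 RPM (log2 difference -0.78, SE 0.33, adjusted p = 0.596), both ubiquitin-like proteins that coat the forming autophagosome. The groups did not overlap for either gene, but for Map1lc3a the higher knockout library came close to the lower heterozygous one. Tex264 protein is known to bind members of their family, and a relation between their levels and that of Tex264 was not tested. Fam134c, another ER-phagy receptor gene, was at 19.2 and 59.6 against 73.1 and 50.2 RPM (adjusted p = 0.656).

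The 15 genes with no assigned role were all tested and included the highest, Spata4, at 2069 and 1577 against 1584 and 1976 RPM. Spata24 was at 253 and 299 against 266 and 222 RPM, Spata25 at 22.3 and 36.4 against 41.0 and 32.9 RPM, and Spag7 at 44.9 and 44.2 against 49.4 and 39.0 RPM. Tex24 was at 74.6 and 74.8 RPM in the heterozygous and 64.7 and 89.1 RPM in the knockout libraries, which lay on either side. Spata3 was at 104 and 218 against 172 and 165 RPM, and Spata21 at 496 and 959 against 804 and 742 RPM, with the knockout libraries between the heterozygous ones for both. Spata1 was at 498 and 279 against 220.2 and 405 RPM. Tex13a was at 12.8 and 23.0 against 25.6 and 18.1 RPM, and Tex28 at 2.42 and 0.532 against 1.42 and 1.95 RPM, both on chromosome X. For all of these the groups overlapped. The median log2 difference of the 15 was 0.16, and 9 of them had a difference above 0. In all, 12 of the 42 genes overlap another listed gene, among them Spata1, Spata4, Spata5, Spata17, Spag17 and Tex10, and since Smart-seq2 keeps no strand, reads from overlapping genes cannot be told apart there.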

How the data were processed

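Sorted round spermatids went through Smart-seq2 and Nextera XT, per the labels' protocols; neither strand nor molecular identifiers are kept. The submitters' processing notes list HISAT2 2.1.0, Trim Galore 0.6.6, FastQC 0.11.8 and mm10. How reads were counted is not stated. The authors deposited log2 RPM, without adjustment for length. Taking the lowest value of a library as 0.9 of a read (0 reads), 99.68% to 99.99% of the other values were whole reads within 0.01 of a read.

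Groups came from the titles. Using limma 3.58.1 (R 4.3.3), with a mean-variance trend and Benjamini-Hochberg adjustment, the deposited values of the 15888 genes reaching 1 RPM in 2 or more libraries were fitted. Folds are ratios of mean RPM. The code was tested on simulated data. Of the 42 symbols, 40 matched GENCODE M21 and 2 stand there under another symbol. Members, lists and roles were chosen with earlier results of these data known. Named with values were the 10 highest per length, up to 8 per direction by p whose groups do not overlap, up to 3 per role by RPM, up to 3 per partner list by p, and further members. Alternatives were 2 scalings, log2(RPM + 1), 2 filters, no trend, voom, leaving out each library, and a replicate block.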

Additional observations from a re-analysis of the deposited data

How the results depend on the processing

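With 12 alternatives, the count of passing members stayed at 0 except without heterozygous replicate 2. That fit leaves 1 heterozygous library, and many other genes of the table passed in it as well. In it Spata9 had a log2 difference of 0.81 and Spata20 one of 0.68. Leaving out 1 library gave 0 to 2 passing members, 0 to 8 members at an unadjusted p under 0.05, a median member log2 difference of -0.029 to 0.13 and 0 to 558 passing genes in all, the lone library of a group being assumed to vary like the other group. Members at an unadjusted p under 0.05 numbered 2 with voom weights and 0 with the replicate block, beside 1. The median member difference was 0.018 with median-ratio scaling and 0.013 with the 5 RPM filter, beside 0.075. Over all genes, 180 passed without a filter, 1 with log2(RPM + 1) and 66 with the replicate block, beside 0; the cause was not tested. The replicate numbers were taken only to name the libraries, and deviations of same-numbered libraries correlated at -0.0761 across genes. The replicate block changed no member's call, but with 0 members passing in the main fit this cannot decide whether libraries were paired.

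Of the 39 tested members, 14 kept their sign in every alternative that tested them, among them the 11 whose groups did not overlap. For these 11, leaving out 1 library could not turn the sign. The filters, the fit with no trend and the replicate block leave the difference itself unchanged. Spata2, Spata22 and Tex13 were not tested with the 5 RPM filter. The other 25 members changed sign in at least 1 alternative. Leaving out 1 library gave -0.54 to 0.65 for Spata18, -0.23 to 0.17 for Spata4, -0.15 to 0.30 for Spata19, -0.22 to 0.68 for Spata20, -0.31 to 0.64 for Spata21, -0.19 to 0.75 for Spag4 and -0.25 to 0.17 for Spata6. Spata18 was at -0.0016 with median-ratio scaling and -0.10 with voom, and Spata4 at 0.018 with quantile normalization and 0.0067 with voom. The 5 tested members under 10 RPM had wide intervals, and the parts of depth and of spread between libraries in them were not separated.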
